A study of Sus scrofa with 6 samples.

Results

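Mitochondrial ribosomal proteins are the protein parts of the ribosome that works inside mitochondria, and their nuclear genes carry symbols beginning with MRPL (large subunit) or MRPS (small subunit). Their transcripts were compared in the backfat of intact male pigs (boars) and castrated male pigs (barrows). Members were the genes with at least 1 probe set, outside the array's controls, that had a single such symbol in the platform annotation, and each gene was represented by its brightest probe set. This gave 58 genes of the 6765 with a single symbol, 36 of the large and 22 of the small subunit, on 77 probe sets in all. MRPL22 and MRPL55 were left out because their 6 probe sets carried several symbol entries.

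The animals were hybrids of Pietrain and Landrace, 30 males from 15 pairs of full brothers. Castration was done at 7 days of age on 1 piglet of a pair while its brother was left intact, and all were weaned at 30 days and had free access to feed. Backfat of the middle layer at the 6th rib was taken at slaughter at 175 days, so barrows had lacked their testes for nearly all of their lives. RNA from 5 pigs of a kind was combined in equal amounts, each pool was hybridised to its own Affymetrix array, and each group thus held 3 arrays. The unit of replication is the pool, so the p-values do not reflect the variation between single pigs.

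The mitochondrial ribosome translates the few messengers encoded by mitochondrial DNA, all of which specify subunits of the respiratory chain and ATP synthase. Its small subunit binds and decodes the messenger and its large subunit forms the peptide bond. All of its proteins are made in the cytosol and imported, and many have a counterpart in bacterial ribosomes while others were added during mitochondrial evolution. In white fat cells mitochondria supply ATP and citrate used for fatty acid synthesis and storage.

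Values are MAS5 signals on a linear scale, in which the signal of a probe set also depends on its oligonucleotides, so signals are compared between pools and not between genes. Arrays correlated at 0.978 to 0.988 within a group and at 0.975 to 0.983 between groups (log2 scale). Log2 ratios of 3' to 5' signal in the RNA quality controls overlapped between groups, at 1.99 to 2.13 in boars and 1.85 to 2.13 in barrows for actin, and barrow replicate 2 had the lowest ratio of both actin and GAPDH. Adipocyte markers were bright, with 7 of the 10 listed on the array under a single symbol and a summed signal of 70737 to 77647 in boars and 67138 to 76576 in barrows. Of these 7 markers 3 lay above 0 and 4 below, with a mean log2 difference of 0.073 and a median of -0.058, and LEP, the hormone leptin, was higher in barrows (0.58, limma adjusted p = 0.021, and 0.0067 to 0.13 over the other settings, with the call lost without the intensity trend and without boar replicate 1, boar replicate 3 or barrow replicate 1). Markers of skeletal muscle, a tissue rich in mitochondria that lies near backfat, were dim. All 11 of the 16 listed skeletal muscle markers found on the array fell below the filter on dim probe sets, with summed signals of 218 to 263 in boars and 212 to 289 in barrows.

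No member of either subunit passed the test for a difference between barrow and boar fat, and the differences centred on 0. Of 14399 tested probe sets 167 (1.16%) had a limma adjusted p under 0.05, and of the 58 members 0 did, with 0 of 36 in the large and 0 of 22 in the small subunit. Differences are given as barrow minus boar on the scale log2(signal + 16). The median difference was 0.0013 in the large and 0.013 in the small subunit, beside -0.014 over all tested probe sets and -0.0053 over 5356 tested genes. In the large subunit 18 genes lay above 0 and 18 below, and in the small subunit 12 lay above and 10 below. All 58 passed the filter and had both group means above it, so these counts leave out no member. RefSeq holds 48 MRPL and 29 MRPS symbols for the pig, so the members do not cover either subunit in full.

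The intervals were narrow enough to bound most of the differences. The 95% confidence interval had a median half-width of 0.24 over the members, and it lay within a 1.5-fold change in either direction in 55 of 58, or 94.8%, beside 82.4% of all tested genes. The point estimate was smaller than 0.2 in size in 54 of 58 members. The 3 whose interval reached past a 1.5-fold change were MRPL24, MRPL50 and MRPS12, the last of which takes part in decoding and had an interval from -0.61 to 0.40. MRPS12 lies outside the rule for named genes and is given here after its values were seen. A call at the spread of these pools needed a difference of 0.36 to 1.29, with a median of 0.54 or 1.45-fold, so smaller differences would not have been called.

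An unadjusted p under 0.05 was found for 3 members, all in the large subunit, where the share over all tested probe sets was 12.2%. The pools of the groups did not overlap in 6 members, beside 18.1% of all tested probe sets (8.38% with barrows higher and 9.76% with boars higher). Barrow pools were all higher in MRPL24, MRPL52 and MRPS10, and boar pools in MRPL33, MRPL50 and MRPS27. Neither share stood above that of all probe sets. No test was made of the list as a whole.

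**Figure D1:**
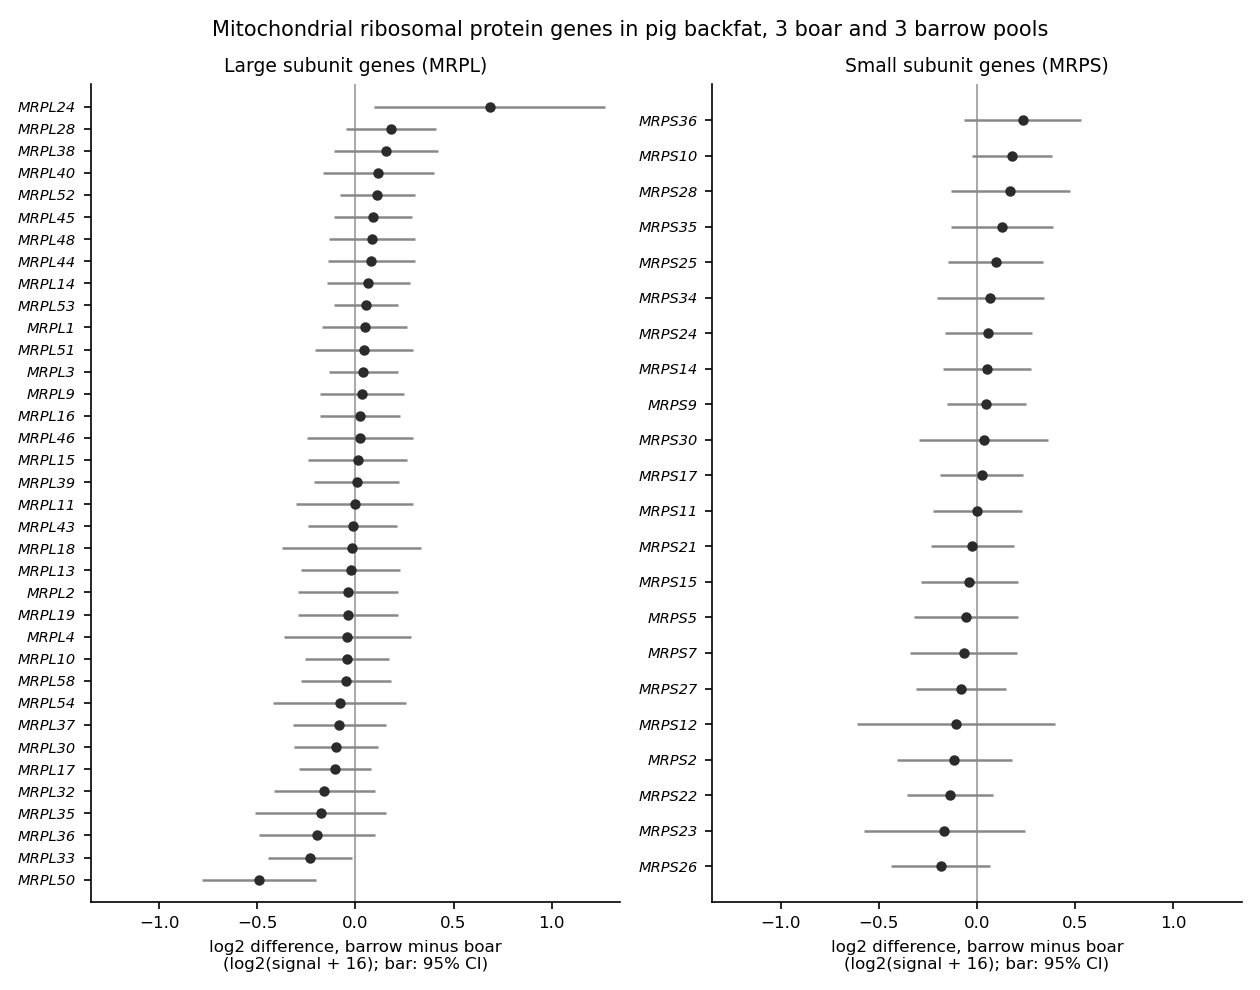
Log2 difference between barrow and boar pools for each of the 36 large and 22 small subunit genes, with the point at the estimate and the bar at its 95% confidence interval (limma, 3 pools per group). Estimates cluster around 0, and the intervals of MRPL24, MRPL33 and MRPL50 are the only 3 that do not include it.

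In the large subunit, the member with the smallest p was MRPL50, a protein that mitochondria added and that bacterial ribosomes lack. Its signals were 384, 426 and 459 in the boar pools and 291, 337 and 264 in the barrow pools. Every boar pool lay above every barrow pool. The signal was 1.40-fold higher in boars (95% CI 1.15 to 1.72), with a log2 difference of -0.49 and a limma adjusted p of 0.13, which does not pass. Over the other settings its adjusted p ran from 0.048 to 0.41. It passed only when arrays were weighted by their quality (-0.51), a setting in which 2.95% of all probe sets passed.

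MRPL24, whose bacterial counterpart helps to start assembly of the large subunit, had the greatest difference and the widest interval. Its signals were 87.5, 223 and 188 in the boar pools and 250, 254 and 275 in the barrow pools. The barrow pools lay close together above the boar pools, and boar replicate 1 lay far below the other boar pools. Its signal was under the lowest tested mean of 92.7 and is not shown to exceed background. The difference of MRPL24 was 0.68 (95% CI 0.097 to 1.27, limma adjusted p = 0.32). Without boar replicate 1 it was 0.32 (limma adjusted p = 0.68).

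MRPL33, which has a bacterial counterpart, gave 908, 928 and 801 in boars and 780, 740 and 715 in barrows. The groups were separated by a narrow gap, and the difference was -0.23 (95% CI -0.45 to -0.017, limma adjusted p = 0.37). Its dimmer probe set went the other way, as given below. MRPL28, also of bacterial ancestry, gave 933, 975 and 864 in boars and 929, 1132 and 1095 in barrows. Barrow replicate 1 fell among the boar pools, and the difference was 0.18 (limma adjusted p = 0.54).

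The remaining 4 large subunit members named for their p had adjusted p from 0.61 to 0.67. MRPL36 had a difference of -0.20, MRPL32, which is trimmed by a mitochondrial protease before it joins the ribosome, -0.16, MRPL38 0.16 and MRPL52 0.11. In MRPL52 the barrow pools differed little among themselves, with 1145 ± 4.93 against 1061 ± 66.1 in boars (SD, n = 3 each). In MRPL36 barrow replicates 1 and 3, at 667 and 636, were below all boar pools and barrow replicate 2, at 904, above them.

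The 3 large subunit genes with the brightest probe sets had differences of at most 0.099 in size. MRPL53 had 2839 ± 69.5 in the boar pools and 2951 ± 160 in the barrow pools (SD, n = 3 each), a difference of 0.054 (95% CI -0.11 to 0.22). MRPL30 had a difference of -0.099 and MRPL15 of 0.011. Among the dim ones, MRPL54 had 299 ± 14.2 and 285 ± 59.0, a difference of -0.080 (95% CI -0.42 to 0.26). MRPL58, a release factor built into the large subunit that frees stalled ribosomes, had a difference of -0.050, and MRPL45, which lies at the exit of the peptide tunnel facing the inner membrane, had 0.090. These last 2 lie outside the rule for named genes and were chosen for their roles after their values were seen.

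**Figure D2:**
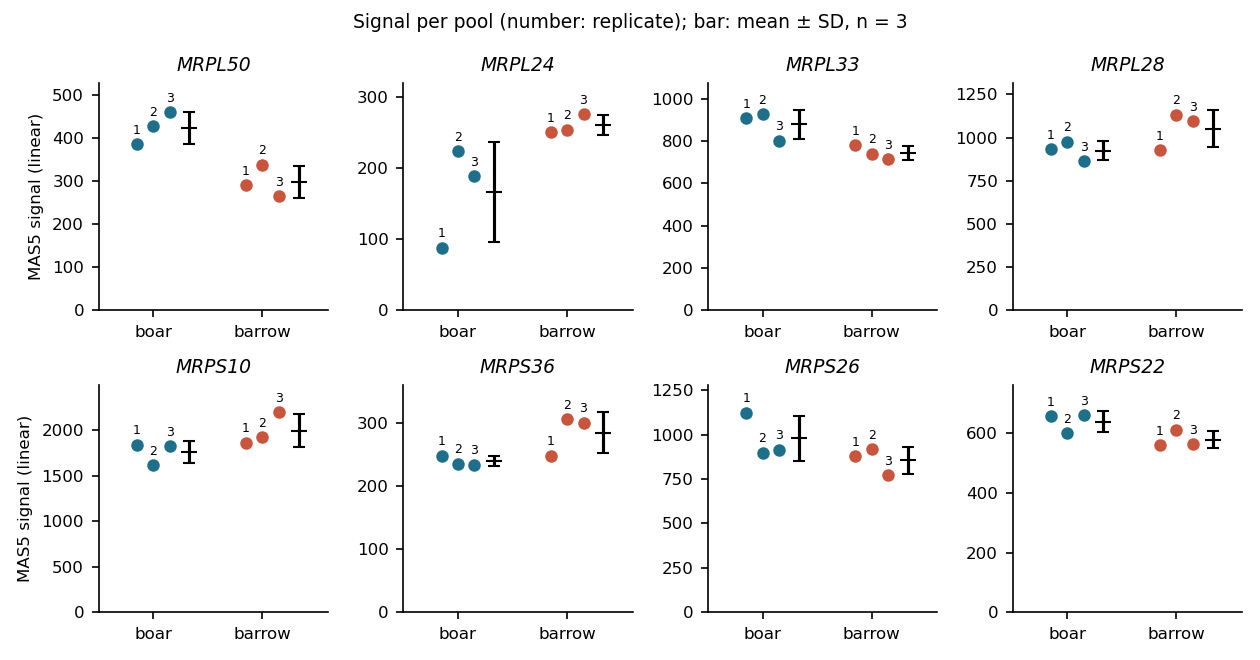
MAS5 signal in each pool for the 4 members of each subunit with the smallest unadjusted p, with replicate numbers beside the points and mean ± SD (n = 3) as black bars, on linear axes from 0. MRPL50, MRPL24, MRPL33 and MRPS10 have groups that do not overlap, and in MRPL24 boar replicate 1 lies far below the other pools.

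In the small subunit no member had an unadjusted p under 0.05, and the adjusted p ran from 0.49 to 0.996. MRPS10, which has a bacterial counterpart, had the smallest p. Its signals were 1837, 1616 and 1820 in boars and 1857, 1922 and 2193 in barrows. The gap between the highest boar and the lowest barrow pool was small, and the difference was 0.18 (95% CI -0.027 to 0.38, limma adjusted p = 0.49).

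MRPS26, a mitochondrial addition, had the lowest difference of the subunit, -0.19 (95% CI -0.44 to 0.066, limma adjusted p = 0.57). Its boar signals were 1123, 898 and 914 and its barrow signals 878, 916 and 772. Boar replicate 1 stood above the rest, and the groups overlapped. Without that pool the difference was -0.084 (limma adjusted p = 0.92). MRPS22, MRPS23 and MRPS2 had differences of -0.14, -0.17 and -0.12, and MRPS28 and MRPS35 of 0.17 and 0.13, with adjusted p from 0.63 to 0.80 (limma). MRPS27, an RNA-binding protein that was named after its values were seen, had 485, 488 and 506 in boars and 479, 434 and 483 in barrows. Its groups did not overlap, by a margin of a few signal units, and the difference was -0.082 (limma adjusted p = 0.82).

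The bright probe sets of MRPS21 and MRPS15 had differences of -0.023 and -0.040, and the dim one of MRPS7 of -0.068. MRPS23, the dimmest member, had 182 ± 29.6 in the boar pools and 161 ± 31.0 in the barrow pools (SD, n = 3 each), and its interval ran from -0.58 to 0.25.

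A pair of genes with MRPS symbols are known from structural work not to belong to the small subunit. MRPS36 is a component of the oxoglutarate dehydrogenase complex of the citrate cycle. It had the highest difference among MRPS genes, 0.23 (95% CI -0.064 to 0.53, limma adjusted p = 0.54), with 248, 236 and 234 in boars and 248, 306 and 301 in barrows. Barrow replicate 1 was level with the boar pools and the other two barrow pools were above them. MRPS30 sits in the large subunit and had a difference of 0.033. With MRPS30 counted in the large subunit and MRPS36 left out, the medians were 0.0062 over 37 large and -0.011 over 20 small subunit genes.

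Several probe sets were available for 14 members, and for 11 of these more than 1 was tested. The tested probe sets had the same sign in 6 genes and opposite signs in 5, and 0 of the 69 tested probe sets of members passed the threshold. In MRPL33 the brightest probe set had -0.23 and the other 0.15 (from 392 ± 31.7 to 438 ± 31.7, SD, n = 3 each, limma adjusted p = 0.66). In MRPL35 the brightest had -0.18 and another 0.21, with the barrow pools all above the boar pools in the latter (limma adjusted p = 0.62). MRPS9, MRPL46 and MRPL3 had pairs of 0.047 and -0.14, 0.021 and -0.18, and 0.041 and -0.0076. A dim probe set of MRPL38 below the filter had the greatest difference of all 77, 0.80, but its signals lay under the lowest tested mean of 92.7 in every pool and are not shown to exceed background.

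Members were also divided by ancestry. In the large subunit 21 genes with a bacterial counterpart had a median difference of -0.024, with 8 above 0, and 15 mitochondrial additions had 0.044, with 10 above 0. In the small subunit 13 genes of bacterial ancestry had 0.0019 and 7 additions -0.082. The order of the classes was thus opposite in the 2 subunits, which was not tested.

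Variation among barrow pools exceeded the difference between the groups. Averaged over the 36 large subunit genes, the log2 level was 9.77, 9.80 and 9.76 in the boar pools and 9.74, 9.91 and 9.68 in the barrow pools. The group means were 9.78 ± 0.020 and 9.78 ± 0.12 (SD, n = 3 each). Over the 22 small subunit genes the levels were 9.38, 9.32 and 9.27 in boars and 9.28, 9.43 and 9.27 in barrows. In both subunits barrow replicate 2 was the highest of the 6 pools, and the other two barrow pools lay below the boar mean.

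Barrow replicate 2 gave the highest signal of all pools in 31 of 58 members, 22 of the large and 9 of the small subunit, beside 24.9% of all tested genes. It was the highest barrow pool in 43 members (74.1%, beside 42.0% of all tested genes). Among the small subunit's 7 mitochondrial additions it was the highest of all pools in 0 and the highest barrow pool in 2. These are too few genes to set that class apart. This pool was singled out after its values were seen. Without it the median difference was -0.068 in the large and -0.036 in the small subunit, 39 of 58 members lay below 0 and 0 were called. Without barrow replicate 3 the medians were 0.080 and 0.051, and 39 members lay above 0. MRPL35 illustrates this, with -0.18 in all pools, -0.37 without barrow replicate 2 and -0.025 without barrow replicate 3.

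Other sets also stood high or low in barrow replicate 2. Relative to the mean of the 6 pools, the log2 level there was 0.13 for the large and 0.10 for the small subunit, 0.21 for the nuclear respiratory chain subunits, 0.12 for the adipocyte markers, -0.25 for the fibroblast and progenitor markers and -0.023 for the cytosolic ribosomal proteins. It was 0.0094 over all tested genes. It stood farthest out for the 2 tested markers of epithelium and skin glands, at 1.64. The 6 such markers on the array had a summed signal of 1988 in this pool, 633 and 617 in the other two barrow pools and 260 to 380 in the boar pools. Most of it was PIP, a protein secreted by skin and other exocrine glands, with a signal of 1508 in this pool. Erythroid markers were at -0.13 there, with 0.21 and 0.17 in barrow replicates 1 and 3. Macrophage, lymphocyte and endothelial markers were at -0.11, -0.094 and -0.042, but each was lower in another barrow pool. Barrow replicate 3 was at -0.18 for macrophage and -0.16 for endothelial markers, and barrow replicate 1 at -0.28 for lymphocyte markers. The part of cell composition or RNA quality in the level of this pool was not tested. In tissue RNA, fewer cells of a type and less RNA per cell cannot be told apart.

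**Figure D3:**
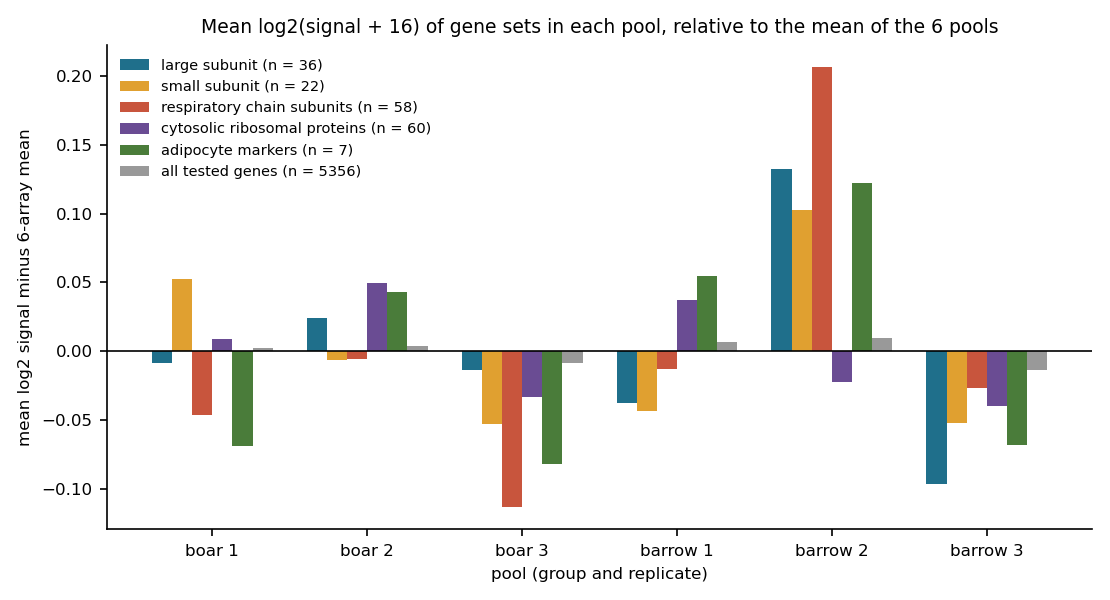
Mean log2(signal + 16) of 6 gene sets in each pool, relative to the mean of the 6 pools, with n giving the tested genes per set. In barrow replicate 2 the means of both subunits (0.13 and 0.10), the respiratory chain subunits (0.21) and the adipocyte markers (0.12) are at their highest. The mean of the cytosolic ribosomal proteins is not. Of the 7 adipocyte markers 2 had their highest signal in this pool and 4 in boar replicate 2.

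The other genes of mitochondrial translation were likewise without a call. Of 4 ribosomal proteins known by other symbols, 9 translation factors, 16 assembly factors, 9 tRNA synthetases and related enzymes, 9 genes of mitochondrial DNA and RNA upkeep and 6 regulators of mitochondrial biogenesis that were tested, 0 passed in either direction. Median differences were 0.092, 0.057, -0.057, 0.017, -0.015 and -0.053. PPARGC1A, a coactivator that drives mitochondrial biogenesis and is named here for its role, lay below the filter.

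Among the ribosomal proteins with other symbols, DAP3, a GTP-binding protein of the small subunit, had 0.16 and GADD45GIP1 of the large subunit 0.28 (limma adjusted p = 0.62 and 0.67). Among the translation factors, MTRF1L, a release factor, had 0.44 and the elongation factor GFM1 -0.20 (limma adjusted p = 0.29 and 0.55).

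RBFA, which helps to mature the small subunit, had the smallest p among assembly factors. Its mean signal went from 418 ± 50.5 in the boar pools to 577 ± 33.9 in the barrow pools (SD, n = 3 each), a difference of 0.46 (95% CI 0.20 to 0.72, limma adjusted p = 0.11), and the groups did not overlap. NDUFAB1, an acyl carrier protein of fatty acid synthesis in mitochondria, had 0.20 (limma adjusted p = 0.23). GATB, part of the enzyme that makes glutamine-loaded tRNA, had 0.72 (limma adjusted p = 0.13), from 74.6 ± 5.90 to 134 ± 22.0 (SD, n = 3 each). Its boar mean lay under the lowest tested mean, so only its barrow signals carried it past the filter. IARS2, the mitochondrial isoleucyl-tRNA synthetase, had 0.25 (limma adjusted p = 0.35).

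TFAM, which packages mitochondrial DNA and starts its transcription, had -0.13, and its boar pools lay above its barrow pools (limma adjusted p = 0.57). The helicase SUPV3L1 had -0.33 (limma adjusted p = 0.55). Among the regulators, YY1 had -0.11 and MYC -0.13 (limma adjusted p = 0.65 and 0.70).

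Nuclear subunits of the respiratory chain and ATP synthase, which join the products of the mitochondrial ribosome, are set beside the members here. Of 58 tested subunits 48 lay above 0, with a median of 0.11, where 30 of 58 ribosomal proteins lay above 0 with a median of 0.0041. None of these subunits passed, 1 passed with array weights, and 4 (ATP5I, SDHA, SDHC and UQCR10) passed with the replicate number as a block, a fit in which 2.35% of all probe sets and 0 of 58 members passed. SDHA, a succinate dehydrogenase subunit, had 0.30 (limma adjusted p = 0.067, and 0.040 with the block), and SDHC of the same enzyme had 0.33 (limma adjusted p = 0.15, and 0.047 with the block). Barrow replicate 2 was the highest pool in 45 of the 58 subunits, and without it 34 lay above 0 with a median of 0.046. The difference between the sets was not tested.

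Markers of some other cell types leaned to 1 side between the same groups, but few passed. Of 7 fibroblast and progenitor markers 4 lay above 0 (mean 0.0098, range -0.34 to 0.37), and of 4 erythroid markers 3 (mean 0.17). All 3 tested lymphocyte markers lay below 0 (mean -0.22), and none of these markers passed. The lowest limma adjusted p of the fibroblast and progenitor markers was 0.060, and some of them passed in other settings. With the replicate block and after quantile normalization 1 passed as lower in barrows. With array weights 1 passed as higher and 1 as lower, and 1 passed as higher without barrow replicate 2. Of 9 endothelial markers 8 lay below 0, with a mean difference of -0.21 and summed signals of 16424 to 17133 in boars and 14530 to 15407 in barrows. TEK, a receptor of endothelial cells, was the 1 that passed (-0.47, limma adjusted p = 0.047, and 0.011 to 0.25 over the other settings), and its call was lost without the filter, after median centring, without the intensity trend and without boar replicate 1 or 3 or barrow replicate 1 or 3. Of 7 tested macrophage markers 6 lay below 0, with a mean of -0.21, and 0 passed. With the replicate block 1 of them passed as lower in barrows (limma adjusted p = 0.035). The summed signals of all 8 macrophage markers were 8199 to 10531 in boars and 7795 to 9133 in barrows. Of the 2 tested epithelium and skin gland markers 1 had a difference of -0.20 (limma adjusted p = 0.77). The other, PIP, was higher in barrows, from 13.7, 3.83 and 29.9 in boars to 207, 1508 and 219 in barrows (limma adjusted p = 0.018, and 0.0039 to 0.11 over the other settings). The call was lost without the filter, without the intensity trend and without boar replicate 1 or 3. Its boar signals lay below the lowest tested mean, so only its barrow signals carried it past the filter, and it lay below the filter when any 1 barrow pool was left out, with the smaller pseudocount and with the stricter filter. The part of these cell types in the levels of the respiratory chain subunits and of the members was not tested.

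Cytosolic ribosomal proteins, which translate nuclear messengers, had a median of -0.012 over 60 tested genes, with 24 above 0. After quantile normalization 10 lay above 0 and after median centring 33, so their balance of signs depended on the scaling. RPL22L1, a paralogue of a large subunit protein, fell from 9239 ± 225 to 7457 ± 204 (SD, n = 3 each), a difference of -0.31 (95% CI -0.44 to -0.17, limma adjusted p = 0.041, and 0.019 to 0.25 over the other settings, with the call lost without the filter, after median centring, without the intensity trend and without any 1 pool other than barrow replicate 2).

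**Figure D4:**
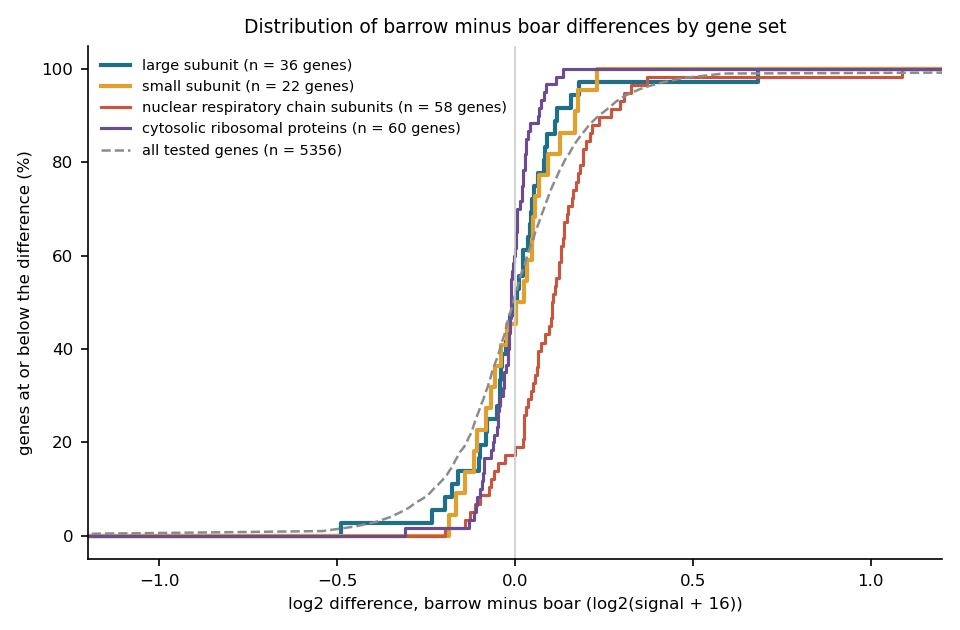
Cumulative share of genes (percent) by barrow minus boar difference on the scale log2(signal + 16), for both subunits of the mitochondrial ribosome, nuclear respiratory chain subunits, cytosolic ribosomal proteins and all 5356 tested genes. The curves of both mitochondrial subunits cross the middle near 0 (medians 0.0013 and 0.013), and that of the respiratory chain lies to their right (median 0.11).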

How the data were processed

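Signal intensity values per probe set and array were produced with MAS5, per the submitters' processing notes, and deposited by the authors on a linear scale. Its version is not given in the sources used here. The 2% trimmed mean of every array was about 500.1, as tested on the values, so arrays had been scaled. Probe sets were named through the platform annotation, and 57 of 58 member symbols were found again in the RefSeq table (Sscrofa11.1). Of 24123 probe sets 124 controls were removed. Values were transformed to log2(signal + 16), and probe sets in the top 60% by mean signal, 14399 of them with a mean of about 92.7 or more, were tested with limma 3.58.1 in R 4.3.3 (intensity trend, 2-sided, Benjamini-Hochberg over all of them, threshold 0.05). No detection calls were used, and 6 arrays limit the precision.

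Members and gene lists were chosen with earlier results of these data known. The rule for named genes took, per subunit, members past the threshold, the 8 with the smallest p, the 3 brightest and 3 dimmest, members whose probe sets disagreed, MRPS18A, MRPS18B, MRPS18C, MRPL12 (not analysed here, with no single-symbol probe set), MRPS30 and MRPS36, and per list those past the threshold or else the 2 with the smallest p. Boar and barrow pools that share a replicate number had residuals correlated at 0.12 to 0.26 (other combinations at -0.19 to -0.011), and by this check the replicate number counts as a pairing, although the labels do not say what they share. Residuals were centred on the mean of each group, so positive values in some combinations force negative ones in others. The negative values are thus not separate evidence of a pairing. Over the 58 members alone the correlations of pools that share a number were -0.16, -0.013 and 0.34, which does not bear out a pairing there. All differences, intervals and p-values come from the fit without the block unless the block is named. On simulated arrays (14399 probe sets, 200 changed) 18 of 67 changes of 0.5, 50 of 67 of 1 and 66 of 66 of 2 on the log2 scale were called, with 9 false calls. Alternatives were other pseudocounts, filters and normalizations, no intensity trend, array weights, a replicate block, the mean of probe sets, subunits by structure and leaving out each pool.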

Additional observations from a re-analysis of the deposited data

How the results depend on the processing

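The number of changed probe sets, 167, was 96 without a filter, 32 without the intensity trend, 425 with array weights and 338 with the replicate block, and 27 to 290 when 1 pool was left out. The number of called members stayed 0 in both subunits under every setting run, except that 1 large subunit gene, MRPL50, was called with array weights (-0.51, limma adjusted p = 0.048). With the replicate block 0 members were called (lowest limma adjusted p = 0.11). Leaving out pools moved the median from -0.068 to 0.080 in the large and from -0.036 to 0.051 in the small subunit, within the spread between pools. None of the sign changes that follow concerned a called gene. With the mean of probe sets MRPL3 had -0.052, MRPL15 -0.046, MRPL35 0.12, MRPS2 0.13 and MRPS9 -0.048, and with array weights MRPL15 had -0.074 and MRPS30 -0.079. When 1 pool was left out, MRPL3 ran from -0.0040 to 0.080, MRPL15 from -0.11 to 0.085, MRPL46 from -0.041 to 0.11, MRPL54 from -0.23 to 0.028, MRPS9 from -0.024 to 0.088, MRPS15 from -0.17 to 0.038, MRPS21 from -0.10 to 0.048 and MRPS30 from -0.094 to 0.12. Members with differences near 0 thus have no settled direction, and the signs of MRPL35 and MRPS2 depended on the probe sets used. The mean of probe sets also took in dim probe sets below the filter. In the fit without a filter these had 0.33 in MRPL35, 0.38 in MRPS2, -0.19 in MRPL3 and -0.10 in MRPL15. No background level is known here, which limits the dim probe sets.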
